A study of Mus musculus with 71 samples.

Results

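The YTH-domain readers are the proteins that recognise N6-methyladenosine (m6A) in RNA through a YTH domain. Mouse carries 5 such genes, Ythdf1, Ythdf2, Ythdf3, Ythdc1 and Ythdc2. They were taken by name, and all 5 were found among the 21527 genes of the tables. A writer complex around METTL3 and METTL14 places m6A on nascent transcripts, and the readers act on the marked RNA afterwards. YTHDF1, YTHDF2 and YTHDF3 are closely related cytoplasmic proteins, of which YTHDF2 is best known for bringing the CCR4-NOT deadenylase to methylated mRNA. YTHDC1 works in the nucleus in splicing and export and, in embryonic stem cells, in the silencing of retrotransposons, and YTHDC2 is a helicase known mainly for its need in the meiotic germ line.

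Male mouse embryonic stem cells (mESC) in 2i/LIF medium were analysed by SLAM-seq, in which 4-thiouridine (s4U) built into RNA is read as T-to-C conversions. Labelled cells received 100 µM s4U for 24 h and then an excess of uridine, and were collected after 0, 1, 1.5, 2.3, 3.5, 5.3, 8 and 12 h of this chase (T0 to T7). STM2457, a METTL3 inhibitor, was given at 20 µM, or DMSO as its control, from 6 h before the chase and throughout it. Unlabelled libraries were made from cells with either treatment and no s4U, and the length of their treatment was not given in the sources used here. The 18 groups, 9 conditions in each treatment, held 4 libraries each except STM2457 at T4, which held 3. The labels do not describe the replicates, which the study's methods call biological and independent.

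The deposited tables held reads counted over windows at the 3′ ends of genes, with 4539726 to 7368244 reads in each of the 36 DMSO libraries and 4704543 to 6804970 in each of the 35 STM2457 libraries. Levels are CPM, a gene's reads relative to its library's total, scaled by TMM, and genes are compared in CPM and per kilobase of window. Of the 21527 genes, 12659 passed the filter on low counts, among them 5 of the 5 readers. Ythdf1 had 539 to 1726 reads in a library, Ythdf2 113 to 691, Ythdf3 174 to 782, Ythdc1 233 to 922 and Ythdc2 18 to 99. Counting error was therefore largest for Ythdc2.

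Some libraries stood apart from the rest within their groups. The first principal component of log2 CPM over 7952 genes carried 34.9% of the variance, and 12 of 71 libraries lay below -20 on it, 9 of them DMSO and 3 STM2457, with 6 of the 12 at T1. Across the 71 libraries, which differ in treatment and time, Pearson's r with this component was 0.82 for Ythdf3, 0.53 for Ythdf1, -0.05 for Ythdc1, -0.40 for Ythdf2 and -0.50 for Ythdc2. These levels include multimapping reads. Each comparison of the treatments was therefore repeated without the 12 libraries and with the component as a covariate, both chosen after seeing the data. The part of this component in the results was not tested beyond these refits.

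The labelled cell type was checked against its markers. Of 10 embryonic stem cell markers 9 were in the tables, none of them at 0 reads, and their summed level was 3224 to 5554 CPM in DMSO and 3420 to 5074 CPM in STM2457 libraries. Most of it came from Dppa5a, with means of 2737 and 2657 CPM. Klf4 was the lowest of the 9, at 2.63 and 2.94 CPM. The 8 fibroblast genes summed to 135 to 339 and 141 to 387 CPM, nearly all of it from Fn1, while Postn had 0 reads, Col3a1 4 and Lum 16 in the 71 libraries together. The 8 genes of primed or differentiated cells in the tables summed to 31.1 to 145.9 and 34.6 to 112 CPM, with Cdx2 the most abundant. Klf4 lay below Cdx2 (22.4 and 20.3 CPM), T (24.7 and 16.3 CPM), Otx2, Gata4 and Eomes, and above Fgf5, Gata6 and Sox17. Sox2, Pax6 and Sox1 were not analysed here.

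The readers were measured at windows on 5 chromosomes of GRCm38, with gene positions from GENCODE M21. Where several annotated UTRs of a gene remained, the study's methods collapsed them, and how many each reader had was not determined. The window of a reader therefore means all its counted bases together. Ythdf1 (ENSMUSG00000038848.14) lies at chr2:180904377-180920949 on the minus strand, and its window had 502 bases with 166 Ts. Ythdf2 (ENSMUSG00000040025.17) lies at chr4:132184912-132212303 on the minus strand, with 511 bases and 166 Ts. Ythdf3 (ENSMUSG00000047213.14) lies at chr3:16183212-16217037 on the plus strand, with 752 bases and 308 Ts. Ythdc1 (ENSMUSG00000035851.14) lies at chr5:86804221-86836659 on the plus strand, with 253 bases and 89 Ts, and overlaps the annotated lincRNA Gm43055, which is not in the tables. Ythdc2 (ENSMUSG00000034653.11) lies at chr18:44827746-44889724 on the plus strand, with 250 bases and 103 Ts.

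In CPM over the chase groups, Ythdf1 was the most abundant reader in both treatments (144 in DMSO and 202 in STM2457). Ythdc2 was the least (9.83 and 7.70). Counted with multimapping reads and per kilobase of window, Ythdf1 and Ythdc1 were the highest in both treatments and Ythdc2 the lowest. Reads come from the 3′ ends of transcripts, so counts need not grow with the window. Values per kilobase can therefore favour readers with short windows. Averaged over the 9 DMSO conditions, the level was 286 CPM per kilobase for Ythdf1, 236 for Ythdc1, 88.7 for Ythdf3, 80.4 for Ythdf2 and 38.1 for Ythdc2. Ythdf1 and Ythdc1 did not overlap in 5 of 9 conditions, Ythdc1 and Ythdf3 in 9 of 9, Ythdf3 and Ythdf2 in 5 of 9, and Ythdf2 and Ythdc2 in 6 of 9. Ythdf3 was the higher of its pair in 4 of those 5 and Ythdf2 in 1, T2, so these 2 had no fixed order. In STM2457 cells the order was Ythdc1 at 427, Ythdf1 at 409, Ythdf2 at 129, Ythdf3 at 113 and Ythdc2 at 30.7. Here Ythdc1 and Ythdf1 were apart in 2 of 9 conditions, with Ythdc1 above at T1 and Ythdf1 above at T7, and the Ythdc1 mean was the higher one in 4 of 9. Ythdf2 and Ythdf3 were apart in 1 of 9, with the Ythdf2 mean higher in 6. The place of Ythdc1 depends on its window of 253 bases and on multimapping reads. In CPM, the mean of the DMSO chase groups was 61.1 for Ythdc1 and 66.6 for Ythdf3, and without multimapping reads the STM2457 median over the chase was 58.3 CPM for Ythdc1 and 197 CPM for Ythdf1. The order of Ythdf2 and Ythdf3 in STM2457 depends on their windows of 511 and 752 bases. In CPM, the mean of the STM2457 chase groups was 65.5 for Ythdf2 and 83.5 for Ythdf3, the reverse order. Among the 12659 genes, the mean level per kilobase over all libraries stood at percentile 87.7 for Ythdf1, 87.2 for Ythdc1, 65.3 for Ythdf2, 64.3 for Ythdf3 and 40.8 for Ythdc2.

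With STM2457, 4 of the 5 readers rose over the chase and 1 fell, the latter by a margin that 39 of 76 refits did not keep. Taking the mean of the 8 chase groups, Ythdc1, Ythdf2, Ythdf1 and Ythdf3 were higher in STM2457 at adjusted p under 0.01 by edgeR's quasi-likelihood test with Benjamini-Hochberg adjustment, as were 13.9% of the 12659 genes. Ythdc2 was lower, as were 12.6% of genes. The median log2 change of the 5 readers was 0.49 against -0.01 for all genes tested. Over gene and condition pairs, libraries of the treatments did not overlap, with STM2457 above, in 21 of 45 pairs of the readers and in 7.41% of all pairs, and with STM2457 below in 2 of 45 pairs and 6.47%. Fewer cells with a transcript and less of it per cell cannot be told apart in such bulk samples.

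**Figure D1:**
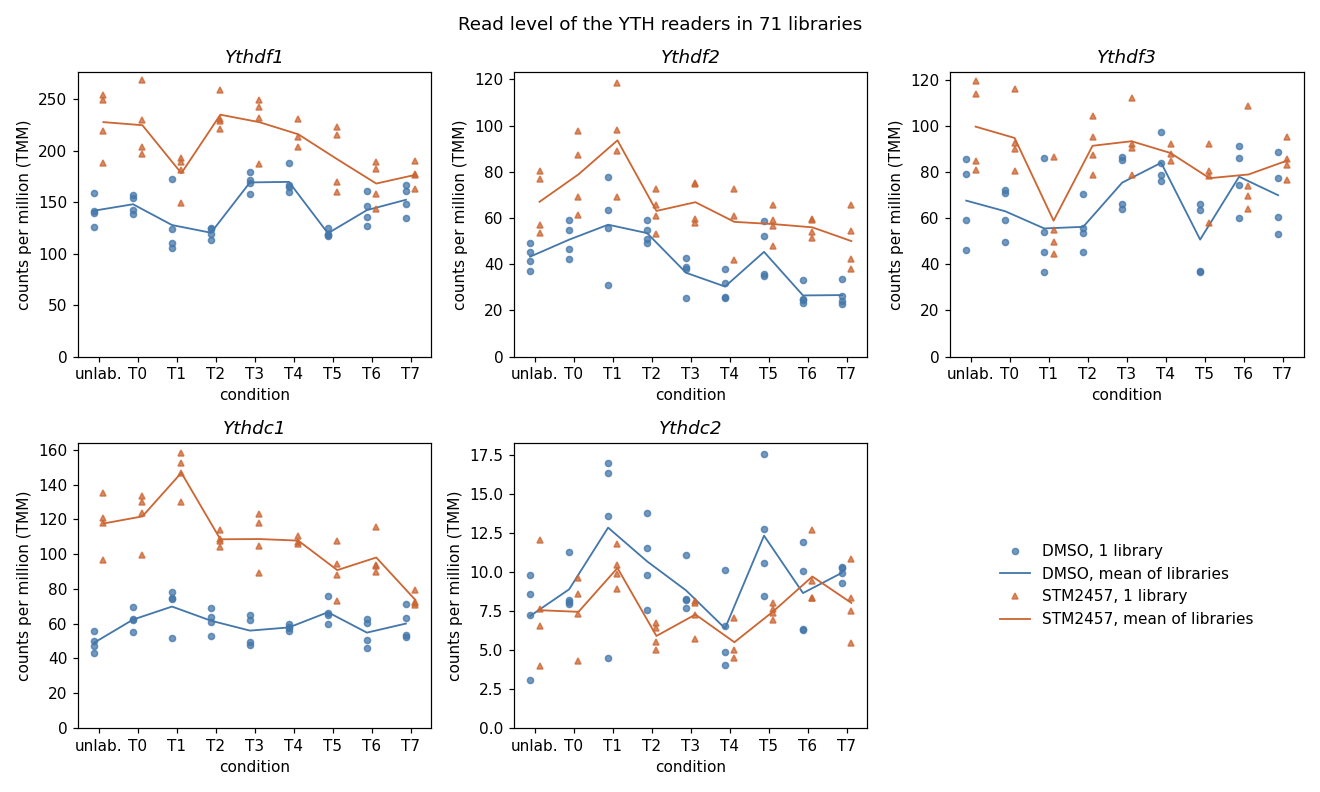
Read level (CPM, TMM) of each reader in every library by condition, with lines joining the means of the libraries in DMSO and STM2457. Ythdc1 libraries of the treatments lay apart in 7 of 9 conditions, and Ythdc2 stayed under 17.6 CPM throughout.

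Ythdf1, a cytoplasmic reader linked to the translation of methylated mRNA, was the most abundant of the family in DMSO cells. In DMSO, its level was 142 ± 13.4 without label, 148 ± 8.79 at T0, 128 ± 30.7 at T1, 120.4 ± 5.64 at T2, 169 ± 8.602 at T3, 169.7 ± 12.7 at T4, 119.8 ± 3.48 at T5, 142 ± 14.9 at T6 and 152 ± 14.2 at T7 (CPM, mean ± SD, n = 4). STM2457 cells had 228 ± 30.5 without label, 225 ± 32.4 at T0, 178 ± 20.03 at T1, 235 ± 16.4 at T2, 228 ± 28.01 at T3, 216 ± 13.5 at T4, 192 ± 31.8 at T5, 168 ± 21.3 at T6 and 177 ± 11.4 at T7 (n = 4, and 3 at T4). Libraries of the treatments did not overlap in 6 of 9 conditions, the exceptions being T1, T6 and T7. At T2, where the distance was widest, the DMSO libraries had 125, 124, 113 and 119 CPM and the STM2457 libraries 221, 229, 230.5 and 259 CPM. At T7 the ranges met, with 148, 134, 166 and 160.5 against 176, 177, 190.4 and 163 CPM. At T2 the treatments also lay apart on the first component, with DMSO libraries at -33.6 to -3.94 and STM2457 libraries at 13.8 to 15.6.

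Over the chase Ythdf1 rose by a log2 fold change of 0.49 (SE 0.04, adjusted p = 5.00e-16) in edgeR's quasi-likelihood test, from lowest, median and highest values of 105, 144 and 188 CPM in 32 DMSO libraries to 143, 197 and 268 CPM in 31 STM2457 libraries. The mean was higher in STM2457 in 9 of 9 conditions. By condition, edgeR's adjusted p was under 0.01 without label (0.68), at T0 (0.60), T1 (0.48), T2 (0.97) and T5 (0.68). The T0 call was lost without STM2457 replicate 4 (0.51, adjusted p = 0.0102) and in 2 of 4 refits without 1 replicate number in both treatments (0.62 and 0.48, adjusted p = 0.0119 and 0.0524). The T1 call was lost without any one of replicates 2, 3 and 4 of either treatment (0.38 to 0.47, adjusted p = 0.0197 to 0.0820) and was 0.13 without the 12 libraries of low first component. The chase call was kept in all 76 refits, with log2 fold changes of 0.45 to 0.55.

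Ythdf2, the reader tied to decay of methylated mRNA, stood higher in STM2457 cells. In DMSO, its level was 43.3 ± 5.19 without label, 50.6 ± 7.62 at T0, 57.1 ± 19.6 at T1, 53.5 ± 4.45 at T2, 36.3 ± 7.45 at T3, 30.3 ± 5.86 at T4, 45.3 ± 11.9 at T5, 26.5 ± 4.62 at T6 and 26.6 ± 4.74 at T7 (CPM, mean ± SD, n = 4). With STM2457 the level was 67.01 ± 13.7 without label, 78.9 ± 16.6 at T0, 93.6 ± 20.5 at T1, 63.1 ± 8.25 at T2, 66.8 ± 9.42 at T3, 58.3 ± 15.5 at T4, 57.4 ± 7.28 at T5, 55.96 ± 3.96 at T6 and 50.02 ± 12.4 at T7 (n = 4, and 3 at T4). The treatments did not overlap in 6 of 9 conditions, the exceptions being T1, T2 and T5. At T6 the DMSO libraries had 33.4, 24.6, 24.7 and 23.3 CPM and the STM2457 libraries 53.8, 59.1, 51.5 and 59.5 CPM, a 2.11-fold difference of the means. At T2 they had 48.99, 54.8, 50.99 and 59.1 against 52.96, 65.7, 60.96 and 72.6 CPM, and 3 of the 4 STM2457 values exceeded every DMSO value.

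Over the chase Ythdf2 rose by 0.72 (SE 0.07, adjusted p = 1.20e-13) on the log2 scale in edgeR's quasi-likelihood test, from lowest, median and highest values of 22.8, 37.9 and 77.9 CPM to 37.9, 60.96 and 118 CPM. The mean was higher in STM2457 in 9 of 9 conditions, and the chase call was kept in all 76 refits (0.66 to 0.86). Single conditions past adjusted p 0.01 in edgeR were T3 (0.88), T4 (0.94), T6 (1.08) and T7 (0.91). No single library left out ended the T6 call, but it was lost without the replicates numbered 2 (1.02, adjusted p = 0.01102). The T3 call was lost without DMSO replicate 1 or 2 or STM2457 replicate 1 or 4 (0.73 to 0.89, adjusted p = 0.0118 to 0.0426). At T4 it was lost without DMSO replicate 2, 3 or 4 or STM2457 replicate 1 or 3 (0.76 to 0.96, adjusted p = 0.0113 to 0.0832), and at T7 without STM2457 replicate 1 (0.76, adjusted p = 0.0122). Leaving out 1 replicate number in both treatments ended the T3 and T4 calls in 3 of 4 refits each and the T7 call in 2 of 4.

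Ythdf3, the remaining cytoplasmic paralogue, showed the smallest of the upward changes and the highest correlation with the first component. In DMSO, its level was 67.6 ± 18.2 without label, 63.003 ± 10.8 at T0, 55.6 ± 21.7 at T1, 56.3 ± 10.5 at T2, 75.4 ± 11.98 at T3, 84.02 ± 9.44 at T4, 50.7 ± 16.2 at T5, 77.98 ± 13.9 at T6 and 69.96 ± 16.01 at T7 (CPM, mean ± SD, n = 4). The STM2457 values were 99.7 ± 19.7 without label, 94.8 ± 15.2 at T0, 58.9 ± 18.9 at T1, 91.4 ± 11.001 at T2, 93.4 ± 13.8 at T3, 88.3 ± 3.69 at T4, 77.3 ± 14.2 at T5, 78.95 ± 20.2 at T6 and 85.01 ± 7.704 at T7 (n = 4, and 3 at T4). Only T0 and T2 had libraries of the treatments that did not overlap, with 49.6, 59.1, 71.1 and 72.3 against 92.6, 89.9, 80.5 and 116 CPM at T0 and 55.5, 45.3, 70.5 and 53.7 against 78.6, 87.5, 95.01 and 104 CPM at T2. At T1 the highest library of each treatment, 86.3 CPM in DMSO replicate 1 and 86.6 CPM in STM2457 replicate 3, stood well above the other 3. The mean was higher in STM2457 in 9 of 9 conditions, by 1.01-fold at T6 and 1.62-fold at T2.

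The rise of Ythdf3 over the chase was 0.33 (SE 0.07, adjusted p = 1.49e-04) on the log2 scale in edgeR's quasi-likelihood test, from lowest, median and highest values of 36.6, 66.2 and 97.4 CPM to 44.4, 85.7 and 116 CPM. It was kept in all 76 refits (0.15 to 0.39, adjusted p up to 0.00900), the lowest with the first component as a covariate, and it was 0.24 without the 12 libraries below -20. No single condition passed adjusted p 0.01 in edgeR for Ythdf3. The lowest adjusted p values were 0.0122 at T2 (0.70) and 0.04198 at T5 (0.61). The T2 value passed without DMSO replicate 3 (0.80, adjusted p = 0.00758) and in DESeq2 (0.69, adjusted p = 0.00925).

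Ythdc1, the nuclear reader, had the largest estimated change over the chase among the 5, but its refits overlapped those of Ythdf2 (0.76 to 0.88 against 0.66 to 0.86). In DMSO, its level was 48.97 ± 5.43 without label, 62.3 ± 5.81 at T0, 69.8 ± 12.05 at T1, 61.7 ± 6.56 at T2, 55.96 ± 8.74 at T3, 57.8 ± 1.695 at T4, 66.5 ± 6.74 at T5, 54.8 ± 8.03 at T6 and 60.01 ± 8.93 at T7 (CPM, mean ± SD, n = 4). In STM2457 cells the level was 118 ± 15.8 without label, 122 ± 15.4 at T0, 147 ± 12.1 at T1, 108 ± 4.15 at T2, 109 ± 15.3 at T3, 108 ± 2.499 at T4, 90.8 ± 14.3 at T5, 98.01 ± 11.9 at T6 and 73.7 ± 4.03 at T7 (n = 4, and 3 at T4). The treatments did not overlap in 7 of 9 conditions, the exceptions being T5 and T7. Without label the DMSO libraries had 43.1, 55.98, 49.8 and 47.1 CPM and the STM2457 libraries 96.7, 121, 135 and 118 CPM, a 2.40-fold difference of the means and the widest of the 9. At T7 the libraries had 71.1, 52.1, 53.5 and 63.3 against 79.6, 70.5, 72.1 and 72.5 CPM, so the highest DMSO library lay among the STM2457 libraries.

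Over the chase Ythdc1 rose by 0.79 (SE 0.05, adjusted p = 7.67e-24) on the log2 scale in edgeR's quasi-likelihood test, from lowest, median and highest values of 45.8, 61.5 and 78.1 CPM to 70.5, 107 and 158 CPM. The chase call was kept in all 76 refits (0.76 to 0.88). By condition, edgeR's adjusted p was under 0.01 without label (1.26), at T0 (0.97), T1 (1.07), T2 (0.81), T3 (0.96), T4 (0.90) and T6 (0.84), and no 1 library left out ended any of these calls. The T5 value passed without STM2457 replicate 1 (0.54, adjusted p = 0.00633). Fitted on the libraries of T1 alone, the T1 change was 1.06 with an adjusted p of 0.0608.

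Multimapping reads made up 45.5% of Ythdc1 reads, against 26.1% for all genes, 4.54% for Ythdf3, 1.78% for Ythdf2, 0.513% for Ythdc2 and 0.385% for Ythdf1. Without them, the Ythdc1 median over the chase was 32.6 CPM in DMSO and 58.3 CPM in STM2457, and edgeR's log2 fold change was 0.88 (adjusted p = 4.50e-17). The T4 call was lost without them (0.76, adjusted p = 0.0284). None of the 925 words of 50 bases in the last exon of Ythdc1 occurred in a transcript of another gene in GENCODE M21. The other positions of the multimapping reads were not identified. Their share of Ythdc1 reads ran from 28.5 to 74.5% in DMSO chase libraries and from 28.4 to 71.6% in STM2457 ones. The highest shares were in DMSO T1 replicate 2 and STM2457 T1 replicate 4. These were also the lowest of their treatments on the first component (-58.3 and -62.3). The share was not compared with the component over all libraries, and half-lives were not fitted without these reads.

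Ythdc2, the helicase of the meiotic programme, was the only reader with a lower level in STM2457. In DMSO, its level was 7.18 ± 2.95 without label, 8.895 ± 1.62 at T0, 12.9 ± 5.77 at T1, 10.7 ± 2.65 at T2, 8.83 ± 1.52 at T3, 6.39 ± 2.699 at T4, 12.3 ± 3.89 at T5, 8.66 ± 2.799 at T6 and 9.96 ± 0.466 at T7 (CPM, mean ± SD, n = 4). In STM2457 it was 7.56 ± 3.39 without label, 7.45 ± 2.31 at T0, 10.3 ± 1.22 at T1, 5.901 ± 0.802 at T2, 7.28 ± 1.105 at T3, 5.499 ± 1.35 at T4, 7.49 ± 0.444 at T5, 9.72 ± 2.07 at T6 and 8.02 ± 2.25 at T7 (n = 4, and 3 at T4). The mean was lower in STM2457 in 7 of 9 conditions, the exceptions being the unlabelled libraries and T6. The libraries did not overlap at T2 and T5, where STM2457 also lay below for 11.1% and 7.85% of all genes. On the first component, DMSO libraries at T2 lay at -33.6 to -3.94 and STM2457 libraries at 13.8 to 15.6. At T5 they lay at -45.1 to -0.57 and -0.8 to 9.45. At T2 the DMSO libraries had 9.84, 13.8, 7.55 and 11.6 CPM and the STM2457 libraries 4.99, 6.72, 5.49 and 6.41 CPM. At T5 they had 10.6, 12.7, 8.49 and 17.6 against 7.38, 8.004, 6.94 and 7.62 CPM, and at T1 DMSO replicate 1, at 4.47 CPM, lay below every STM2457 library while the other 3 were at 13.6 to 16.99 CPM.

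Over the chase Ythdc2 fell by 0.35 on the log2 scale (SE 0.11, adjusted p = 0.00932) in edgeR's quasi-likelihood test, from lowest, median and highest values of 4.02, 9.88 and 17.6 CPM to 4.28, 7.62 and 12.7 CPM. The fall was -0.13 (adjusted p = 0.564) without the 12 libraries below -20 on the first component and -0.24 (adjusted p = 0.126) with that component as a covariate. Leaving out any one of 31 of 63 single libraries, 13 in DMSO and 18 in STM2457, also ended the call (-0.36 to -0.32, adjusted p = 0.0101 to 0.0177). Leaving out 1 replicate number in both treatments ended it in 3 of 4 refits, with -0.21 (adjusted p = 0.235) without those numbered 2. No single condition passed adjusted p 0.01 in edgeR, the lowest being 0.0473 at T2 (-0.85, SE 0.31).

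Counted by condition, the readers past adjusted p 0.01 in edgeR and higher in STM2457 were 2 of 5 without label, where 1.73% of genes were, 2 at T0 (1.27% of genes), 2 at T1 (1.11%), 2 at T2 (4.16%), 2 at T3 (1.26%), 2 at T4 (1.04%), 1 at T5 (2.46%), 2 at T6 (1.79%) and 1 at T7 (3.85%). No reader was called lower in any single condition, where 32 (T4) to 509 (T2) of the 12659 genes were. Ythdf1 and Ythdc1 made up the pairs without label and at T0, T1 and T2, and Ythdf2 and Ythdc1 those at T3, T4 and T6.

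The level of a reader also moved along the chase. From T0 to T7, edgeR's quasi-likelihood test called 1 of 5 readers lower in DMSO, as it did 8.20% of genes, and 1 of 5 lower in STM2457, as it did 3.03% of genes. Over all genes, 1038 were lower and 613 higher in DMSO, and 384 and 214 in STM2457. With library totals only the balance turned, to 604 lower and 1109 higher in DMSO and 178 and 409 in STM2457, so these shares depend on the scaling. The reader called in DMSO was Ythdf2, which fell by 0.92 on the log2 scale (SE 0.20, adjusted p = 3.23e-04), from 59.1, 54.6, 42.4 and 46.4 CPM at T0 to 22.8, 33.5, 24.3 and 26.1 CPM at T7, without overlap. With the first component as a covariate it was -0.53 (adjusted p = 0.0146). The reader called in STM2457 was Ythdc1, which fell by 0.72 (SE 0.13, adjusted p = 3.66e-05), from 124, 129.997, 99.3 and 134 to 79.6, 70.5, 72.1 and 72.5 CPM, again without overlap. Without multimapping reads the Ythdc1 value was -0.39 (adjusted p = 0.225).

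The difference of these changes between the treatments was past adjusted p 0.01 for 0 of 5 readers in edgeR and in DESeq2, and for 1.11% of genes in edgeR. At an unadjusted p under 0.05 in edgeR there were 2 of 5 readers and 1799 of the 12659 genes. The difference was -0.67 for Ythdc1 (SE 0.18, adjusted p = 0.0250) and -0.76 (adjusted p = 8.64e-04) with the first component as a covariate. For Ythdf2, which changed by -0.66 in STM2457 (SE 0.19, adjusted p = 0.0177), it was 0.27 (SE 0.28, adjusted p = 0.739), so its changes in DMSO and STM2457 were not shown to differ. Ythdf2 in STM2457 was past 0.01 when STM2457 T0 and T7 libraries were fitted alone (-0.64, adjusted p = 0.00546) and without the 12 libraries below -20 (-0.64, adjusted p = 0.00190).

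Ordered by level, no 2 neighbouring conditions of any reader differed beyond the spread of their libraries, in DMSO or in STM2457. The highest and lowest conditions were T4 and T5 for Ythdf1 in DMSO (1.42-fold), T2 and T6 in STM2457 (1.40-fold), T1 and T6 for Ythdf2 in DMSO (2.16-fold) and T1 and T7 in STM2457 (1.87-fold). For Ythdf3 they were T4 and T5 in DMSO (1.66-fold) and the unlabelled libraries and T1 in STM2457 (1.69-fold). For Ythdc1 they were T1 and the unlabelled libraries in DMSO (1.43-fold) and T1 and T7 in STM2457 (1.99-fold), and for Ythdc2 T1 and T4 in DMSO (2.01-fold) and in STM2457 (1.87-fold). Libraries of these extremes overlapped for Ythdf2, Ythdc1 and Ythdc2 in DMSO and for Ythdf3 in STM2457.

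Labelled cells at T0 and unlabelled cells showed no called change in the level of any reader. Between T0 and the unlabelled libraries, edgeR's quasi-likelihood test called 0 of 5 readers in DMSO (0.513% of genes), 0 of 5 in STM2457 (0.521% of genes) and 0 of 5 for the difference between the treatments (0% of genes), and DESeq2 called 0 of 5 in each. At an unadjusted p under 0.05 in edgeR there was 1 reader in DMSO, 0 in STM2457 and 0 for the difference. The 1 was Ythdc1, at 0.35 on the log2 scale (SE 0.13, adjusted p = 0.207). Of the 12659 genes, 1445 in DMSO and 1578 in STM2457 had an unadjusted p under 0.05 in edgeR. For the difference, 487 genes had such a p in edgeR and 537 in DESeq2. The cells of T0 had 6 h of treatment, and for the unlabelled cells the time was not given, so label and treatment time cannot be told apart here.

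The decay of each reader's transcript was read from the conversion rate, the share of covered Ts read as C. The mean of the unlabelled libraries of a treatment was subtracted, the rate was divided by that at T0, and an exponential decay was fitted. A single exponential described the readers loosely, with residual standard errors of 0.0534 to 0.1398 in DMSO and 0.0916 to 0.2504 in STM2457 on the scale of the T0 rate. For Ythdf2 in STM2457, for example, the mean rate was 90.1% of T0 at 3.5 h and 18.4% at 5.3 h. Half-lives could be fitted in both treatments for 7363 transcripts. Their median was 3.19 h with DMSO and 3.45 h with STM2457, with a median log2 change of 0.07, and STM2457 gave the longer value for 56.7%. In the fits to all libraries, all 5 readers passed the limits on coverage, half-life and residual error (up to 0.3). In fits to single series the limit on residual error was not applied, and 5 of 40 exceeded it, Ythdf2 in STM2457 series 1 (0.616) and 2 (0.477), Ythdc1 in STM2457 series 1 (0.578), Ythdf3 in DMSO series 3 (0.425) and Ythdc2 in DMSO series 1 (0.575). The permutation tests and limma below include these 5. All series of a treatment share the same background mean, and these tests do not cover its error. Series join libraries of different times by replicate number only. In the fits to all libraries the half-lives of all 5 readers were longer in STM2457, by a median log2 change of 0.45. These fits were fixed at the T0 rate, whose mean was lower in STM2457 for all 5 readers. A lower T0 rate by itself lengthens the fitted half-life, and a fit with a free start was not tested. A straight line through ln rate gave shorter half-lives in STM2457 for Ythdf1 (-0.56), Ythdf3 (-0.28) and Ythdc1 (-0.46), but not Ythdf2 (0.54) and Ythdc2 (0.04). That line left out times at or below background, so the treatments were not always fitted on the same times. It also gives late times, where rates are near background, the most weight. Across 5741 transcripts limma called 0 of 5 readers and 0% of transcripts at adjusted p under 0.05. At an unadjusted p under 0.05 in limma there were 405 transcripts and 2 readers (Ythdf2 and Ythdc1). Half-lives of the replicate series did not overlap, with STM2457 longer, for 2 of 5 readers and 2.61% of transcripts.

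Label at the start of the chase was not shown to differ between the treatments. After background, the T0 rate was 1.36 ± 0.126% in DMSO and 1.33 ± 0.0766% in STM2457 for Ythdf1, 1.56 ± 0.281% and 1.19 ± 0.398% for Ythdf2, 1.39 ± 0.259% and 1.21 ± 0.208% for Ythdf3, 1.41 ± 0.1495% and 1.14 ± 0.314% for Ythdc1, and 2.11 ± 0.841% and 1.51 ± 0.294% for Ythdc2 (mean ± SD, n = 4). The exact two-sided permutation p was 0.686, 0.2, 0.429, 0.2 and 0.257, where 0.0286 is the smallest that 4 against 4 libraries can give. The mean was lower in STM2457 for all 5 readers. Of 40 pairs of reader and time point, libraries lay apart with STM2457 above in 4, against 1.61% of such pairs over all transcripts, and with STM2457 below in 0, against 2.68%. The 4 were Ythdf1 at T3 and T5, Ythdf2 at T4 and Ythdf3 at T4.

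**Figure D2:**
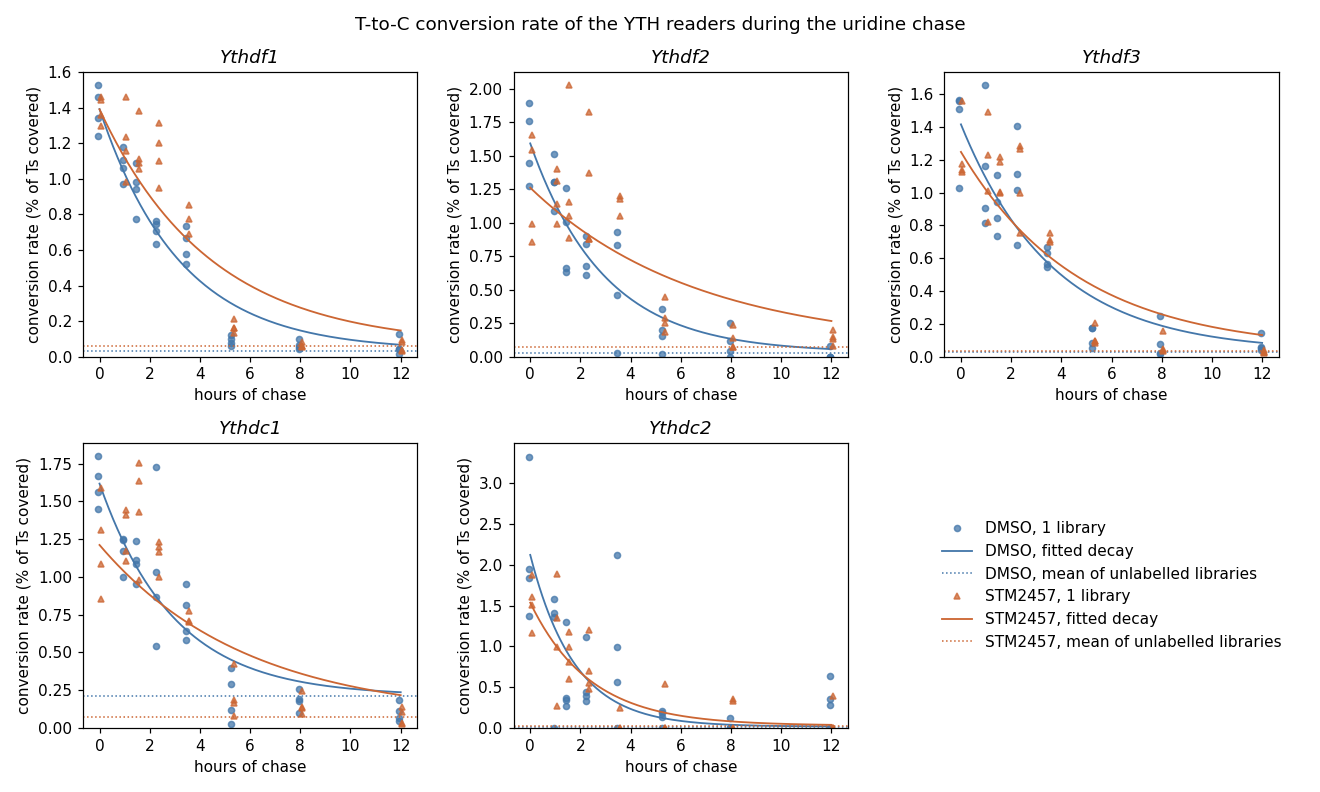
Conversion rate (percent of covered Ts) of each reader in every labelled library against hours of chase, with the fitted decay of each treatment above the mean of its unlabelled libraries (dotted). For Ythdf1 at 2.3 h the STM2457 libraries lay at 0.948 to 1.31% and the DMSO libraries at 0.635 to 0.765%.

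The mean share of T0 label left on Ythdf1 was higher in STM2457 from 1 h to 5.3 h of chase, with libraries of the treatments apart only at 2.3 h and 5.3 h. In DMSO the rate relative to T0 was 76.9% at 1 h, 67.2% at 1.5 h, 49.996% at 2.3 h, 43.5% at 3.5 h, 4.07% at 5.3 h, 2.26% at 8 h and 1.696% at 12 h. STM2457 cells kept 86.2% at 1 h, 82.5% at 1.5 h, 81.1% at 2.3 h, 53.5% at 3.5 h, 7.88% at 5.3 h, 0.212% at 8 h and -0.0451% at 12 h. At T3, the 2.3 h point, the rates in the libraries were 0.709, 0.765, 0.745 and 0.635% in DMSO and 1.099, 1.31, 1.201 and 0.948% in STM2457, and at T5 they were 0.0774, 0.122, 0.1002 and 0.0584% and 0.212, 0.159, 0.131 and 0.16003%. The ranges overlapped at the other times, with 0.9704 to 1.18% in DMSO and 0.981 to 1.46% in STM2457 at T1, 0.773 to 1.09% and 1.06 to 1.38% at T2, and 0.524 to 0.733% and 0.6896 to 0.854% at T4. The means of the unlabelled libraries were 0.0342 ± 0.0332% and 0.0605 ± 0.0207%.

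The fitted half-life of Ythdf1 came to 2.23 h with DMSO and 3.04 h with STM2457, a log2 change of 0.45. The 4 replicate series gave 2.01, 1.95, 2.53 and 2.499 h in DMSO and 2.86, 3.37, 3.04 and 2.605 h in STM2457, without overlap (exact two-sided permutation p = 0.0286, the smallest 4 against 4 can give). Series 4 of STM2457 has no 3.5 h library, and its fit used the other times. Without DMSO replicate 1 or 2 or STM2457 replicate 2 or 3, the exact permutation p was 0.0571 to 0.0857 (0.35 to 0.46). With 3 against 4 series the smallest p is 0.0286 and 0.0571 is the next possible value. A straight line through ln rate gave -0.56 (exact permutation p = 0.314), the opposite direction. To all libraries that line was fitted without the 12 h point of STM2457, which lay below background. In limma the change was 0.41 (SE 0.22, adjusted p = 0.750).

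Ythdf2 had its mean rate near the T0 value up to 3.5 h in STM2457, but not in DMSO. That mean joins STM2457 libraries that differed at T0, with 0.989, 0.855, 1.66 and 1.54% in order of replicate. At 1.5 h they had 2.02, 1.15, 1.05 and 0.888%. The rate at 1.5 h was thus above that at T0 for replicate numbers 1 and 2 and below it for 3 and 4. In DMSO the rate relative to T0 was 81.4% at 1 h, 55.04% at 1.5 h, 46.5% at 2.3 h, 34.1% at 3.5 h, 9.74% at 5.3 h, 4.59% at 8 h and -0.606% at 12 h. With STM2457 this rate was 95.7% at 1 h, 102% at 1.5 h, 98.2% at 2.3 h, 90.1% at 3.5 h, 18.4% at 5.3 h, 4.74% at 8 h and 5.62% at 12 h. At T4, the 3.5 h point, the libraries had 0.0274, 0.4596, 0.933 and 0.832% in DMSO and 1.203, 1.18 and 1.05% in STM2457, so all 3 STM2457 values lay above the DMSO range. DMSO replicate 1 was the low one, with 1 conversion in 3646 covered Ts (95% Wilson interval 0.00484 to 0.155%). At T7, 3 of the 4 DMSO libraries had 0 conversions, in 2236, 3425 and 3183 covered Ts, which allows rates of up to 0.134, 0.0876 and 0.0943%, and replicate 3 had 2 in 2450 (0.0816%). The STM2457 libraries had 0.135, 0.144, 0.198 and 0.07997%, so the ranges overlapped at T7. Such intervals and limits cover counting error only, since reads without molecular identifiers are not independent molecules.

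The fitted half-life of Ythdf2 came to 2.04 h with DMSO and 4.58 h with STM2457, a log2 change of 1.17 that stood at percentile 97.3 among 7363 transcripts. The series gave 2.02, 1.61, 1.89 and 2.85 h in DMSO and 8.04, 7.43, 3.71 and 1.91 h in STM2457, so 3 STM2457 series lay above all DMSO series and series 4 lay among them (exact two-sided permutation p = 0.0857). The 2 longest of these came from series 1 and 2, whose residual errors of 0.616 and 0.477 were over the limit of 0.3. Without STM2457 replicate 4 the log2 change was 1.47 and the exact permutation p 0.0286, and without STM2457 replicates 1 and 2 it was 0.92 and 0.98 (exact permutation p = 0.171 for each). The straight line through ln rate gave 0.54 (exact permutation p = 0.171). Limma gave 1.15 (SE 0.45, adjusted p = 0.698).

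For Ythdf3 the half-lives of the series overlapped between the treatments. In DMSO the rate relative to T0 was 79.6% at 1 h, 63.3% at 1.5 h, 73.8% at 2.3 h, 41.4% at 3.5 h, 6.45% at 5.3 h, 4.36% at 8 h and 3.05% at 12 h. The STM2457 rates were 91.1% at 1 h, 87.8% at 1.5 h, 85.8% at 2.3 h, 56.6% at 3.5 h, 6.84% at 5.3 h, 2.58% at 8 h and -0.593% at 12 h. At T4 the libraries had 0.568, 0.547, 0.634 and 0.6697% in DMSO and 0.699, 0.713 and 0.755% in STM2457, which did not overlap, while at T3 the ranges were nearly the same at 0.682 to 1.41% and 0.756 to 1.29%. The half-life came to 2.55 h with DMSO and 3.26 h with STM2457, a log2 change of 0.35. The series gave 2.02, 1.73, 5.27 and 2.27 h and 3.98, 2.71, 3.77 and 2.57 h, and overlapped, with DMSO series 3, whose residual error was over the limit, the longest of the 8 (exact two-sided permutation p = 0.429). Without DMSO replicate 3 the log2 change was 0.70 (exact permutation p = 0.0571), without DMSO replicate 1 it was 0.23 and without DMSO replicate 2 it was 0.19. Limma gave an adjusted p of 0.882, and the straight line through ln rate gave -0.28.

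After subtraction of background, Ythdc1 had a lower mean share of its T0 label in DMSO than in STM2457 from 1 h to 3.5 h of chase. In DMSO the rate relative to T0 was 67.8% at 1 h, 62.99% at 1.5 h, 59.1% at 2.3 h, 38.05% at 3.5 h, -0.285% at 5.3 h, -2.14% at 8 h and -7.79% at 12 h. In STM2457 the shares were 106% at 1 h, 121% at 1.5 h, 94.5% at 2.3 h, 57.6% at 3.5 h, 12.4% at 5.3 h, 7.26% at 8 h and 0.526% at 12 h. The DMSO background, subtracted from these rates, included unlabelled replicate 4, with 30 conversions in 4896 covered Ts (0.613%, 95% Wilson interval 0.4296 to 0.873%) against 0.1003, 0.118 and 0.0165% in the other 3. This background was 0.212% against 0.0702% in STM2457, and the DMSO shares below 0 after 3.5 h rest on it. Before subtraction the mean rate was the higher one in DMSO at T0 (1.62 against 1.21%), the divisor of these shares. It was also higher in DMSO at 3.5 h (0.747 against 0.727%), 8 h (0.182 against 0.153%) and 12 h (0.102 against 0.0762%). At T2 the libraries had 1.09, 1.24, 1.11 and 0.955% in DMSO and 1.43, 1.64, 1.76 and 0.981% in STM2457, which overlapped.

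The fitted half-life of Ythdc1 came to 2.05 h with DMSO and 4.05 h with STM2457, a log2 change of 0.98 that stood at percentile 95.4. The series gave 1.76, 2.63, 2.203 and 1.66 h in DMSO and 5.89, 4.69, 2.82 and 3.65 h in STM2457, without overlap (exact two-sided permutation p = 0.0286, the smallest possible), and the longest, STM2457 series 1, had a residual error over the limit. All DMSO series share the background that includes unlabelled replicate 4, and this p does not cover its error. The exact permutation p was 0.0571 with no background subtracted (0.72), with the unlabelled libraries of both treatments as background (0.73), and without DMSO replicate 1 (0.99), 2 (1.16), 3 (1.16) or 4 (0.65) or STM2457 replicate 1 (0.82). With 3 against 4 series, too, the smallest p is 0.0286 and 0.0571 is the next possible value. The straight line through ln rate gave -0.46 (exact permutation p = 0.629), the opposite direction. To all libraries that line used DMSO times up to 3.5 h only, since later ones lay below background, and STM2457 times up to 12 h. Limma gave 1.02 (SE 0.29, adjusted p = 0.668), the lowest adjusted p of the 5 readers.

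In the exponential fit to all libraries Ythdc2 had the shortest half-life of the 5, and its coverage was the lowest. The mean was 1295 covered Ts in a DMSO library and 1055 in an STM2457 library. By the straight line through ln rate its half-life was 2.05 h in DMSO, above Ythdf1 (1.75 h) and Ythdf2 (1.79 h). In STM2457 that line gave 2.11 h, above Ythdf1 (1.19 h), Ythdf3 (1.70 h) and Ythdc1 (1.84 h). It gives the late times the most weight and leaves out those at or below background, which differ between readers. In DMSO the rate relative to T0 was 50.9% at 1 h, 26.2% at 1.5 h, 26.2% at 2.3 h, 42.96% at 3.5 h, 5.58% at 5.3 h, 0.714% at 8 h and 14.4% at 12 h. For STM2457 it was 72.7% at 1 h, 57.4% at 1.5 h, 46.96% at 2.3 h, 3.56% at 3.5 h, 7.15% at 5.3 h, 9.399% at 8 h and 4.59% at 12 h. At T4 the DMSO libraries ran from 0 of 633 covered Ts to 11 of 518 (2.12%), and the 3 STM2457 libraries had 2 of 821, 0 of 602 and 0 of 567. The half-life came to 1.22 h with DMSO and 1.65 h with STM2457, at percentiles 2.76 and 5.66 of all transcripts, a log2 change of 0.44. The series gave 2.21, 1.89, 1.48 and 0.676 h and 1.11, 2.22, 1.27 and 2.53 h, which overlapped (exact two-sided permutation p = 0.629). Without DMSO replicate 4 the log2 change was -0.08, without DMSO replicate 2 it was 0.72, and without STM2457 replicates 2 and 3 it was 0.25 and 0.66. Without the 3.5 h point it was 0.99 (exact permutation p = 0.2), the straight line through ln rate gave 0.04, and from the share of reads with a conversion it was -0.03, so no direction was shown.

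**Figure D3:**
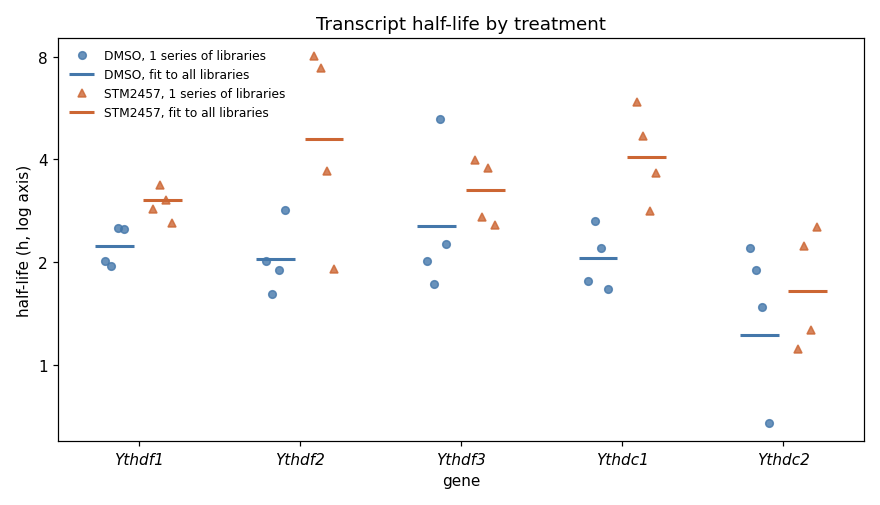
Half-life (h, log axis) of each reader by treatment, with points for the 4 series of same-numbered libraries and bars for the fit to all libraries. The series lay apart for Ythdf1 and Ythdc1 and overlapped for Ythdf2, Ythdf3 and Ythdc2.

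The genes whose levels followed each reader most closely were taken over 71 libraries that share treatments, times and depth, among 7952 genes with a mean of at least 10 CPM. For Ythdf1 they were Cdk9 (Pearson's r of log2 CPM 0.86), Phf23 (0.82) and Nop2 (0.82). For Ythdf2 they were Plekhf2 (0.87), Zfp42 (0.85) and Cdca5 (0.85), and for Ythdf3 Rnf145 (0.89), Hsp90ab1 (0.89) and Trim25 (0.89). Ythdc1 was nearest to Wtap (0.88), Cdca5 (0.86) and Tmem11 (0.85). Ythdc2, itself under 10 CPM on average, reached r values of 0.61 with Selenop, 0.60 with Tjp1 and 0.58 with Topbp1. Cdca5 was thus among the nearest genes of both Ythdf2 and Ythdc1.

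The m6A writers moved in both directions. Over the chase 5 of 11 writers tested rose and 2 fell at adjusted p under 0.01 in edgeR, where 13.9% of all genes rose and 12.6% fell, with a median log2 fold change of 0.00 against -0.01 for all genes. Wtap, a scaffold of the writer complex, rose by 0.76 (SE 0.03, adjusted p = 6.50e-32), Rbm15, which guides the complex to RNA, by 0.57 (SE 0.05, adjusted p = 9.58e-16), and Zc3h13, another subunit, by 0.46 (SE 0.06, adjusted p = 1.84e-08). Mettl16, which methylates U6 snRNA, rose by 0.35, Cbll1 rose by 0.28, and Mettl5, which methylates ribosomal RNA, fell by 0.38. Without the 12 libraries below -20, 5 writers were called higher and 1 lower. Of the 2 erasers, Alkbh5 rose by 0.17 (adjusted p = 0.00106) but stood at 0.10 (adjusted p = 0.0835) without the 12 libraries below -20. Rbm15b was not analysed here.

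Among 19 tested genes of cytoplasmic decay that YTHDF proteins work with, 2 rose and 2 fell (median -0.02), against 13.9% and 12.6% of all genes. The RNase P/MRP subunits Rpp38 and Rpp30 went in opposite directions, at 0.83 (SE 0.08) and -0.35 (SE 0.07), and the CCR4-NOT subunits Cnot10 and Cnot8 stood at -0.42 and 0.16. Among 13 nuclear and meiotic partners of YTHDC1 and YTHDC2, 1 rose and 3 fell (median -0.07), against the same 13.9% and 12.6%. Meioc, the meiotic partner of YTHDC2, fell by 0.42 (SE 0.10, adjusted p = 7.31e-04 in edgeR), and stood at -0.32 (adjusted p = 0.0337) without the 12 libraries. Safb2 rose by 0.32, while Srsf10 (-0.15) and Srsf3 (-0.14) fell and lost their calls without those libraries (-0.13 and -0.08, adjusted p = 0.0428 and 0.0830). Rbm46 was not analysed here.

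Among 14 other RNA-binding proteins tied to m6A, 3 rose and 3 fell (median -0.05), against 13.9% and 12.6% of all genes. Igf2bp2 rose by 0.33 (SE 0.05, adjusted p = 3.76e-08 in edgeR), Eif3a by 0.16 and G3bp1, a core protein of stress granules, by 0.13. Fxr1 fell by 0.23 and its paralogue Fxr2 by 0.16, and Eif3h stood at -0.11, or -0.07 (adjusted p = 0.0873) without the 12 libraries. Of the 9 stem cell markers tested, 4 rose and 2 fell, against the same 13.9% and 12.6%. Zfp42 rose by 0.69, Esrrb by 0.64, Nanog by 0.36 and Tfcp2l1 by 0.33, while Tdgf1 fell by 0.44 and Dppa3 by 0.26, the latter standing at -0.18 (adjusted p = 0.0228) without the 12 libraries. Of the fibroblast genes 0 of 4 tested were called in edgeR. At an unadjusted p under 0.05 there were 1 of these 4, Thy1 (0.31, adjusted p = 0.0291), and 5629 of the 12659 genes. Of the primed or differentiated genes 1 of 6 was called, T, at -0.44 (-0.26, adjusted p = 0.0731, without the 12 libraries). Whether these markers bear on the readers was not tested.

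The sequence in which the writer complex most often methylates adenosine was counted in 1 annotated transcript of each gene, as GGAC followed by any base but G on the sense strand. Ythdf1 had 11 in 2272 bases (4.84 per kilobase), Ythdf2 17 in 4129 (4.12), Ythdf3 10 in 4929 (2.03), Ythdc1 6 in 2960 (2.03) and Ythdc2 10 in 7215 (1.39). Against a median of 3.72 per kilobase over 12230 coding genes tested, these stood at percentiles 73.6, 58.96, 12.1, 12.1 and 4.28. Of those coding genes, 99.2% held at least 1 such word. In 3′ UTRs, where 79.1% of coding genes held 1, there were 6 in Ythdf2, 3 in Ythdf3, 1 in Ythdc1, and 0 in Ythdf1 and Ythdc2. These UTRs had 2012, 2877, 749, 272 and 1936 bases, in that order. The 272 bases of Ythdf1 are fewer than the 502 of its window, so its count may not cover the whole window. A word in these letters is a description of the transcript and no measurement of methylation.

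For the 4 readers that rose, the word nearest to the stop codon is shown with its surroundings, since m6A is known to gather there. Each was GGACA (capitals), read from the GENCODE M21 transcript on the strand of the gene, and lies at chr2:180910925-180910949 (minus, coding) for Ythdf1, chr4:132186858-132186882 (minus, 3′ UTR) for Ythdf2, chr3:16205279-16205303 (plus, coding) for Ythdf3 and chr5:86835859-86835883 (plus, coding) for Ythdc1, in GRCm38.
Ythdf1: tctggtctcaGGACAagtggaaggg
Ythdf2: tatcctaagaGGACAcgatgacctg
Ythdf3: ccaattcaagGGACActcaagaagt
Ythdc1: tatgtgatcgGGACAgagaccgagg
Counted from the stop codon, with negative numbers before it, the word stood at -275 bases in Ythdf1, -155 in Ythdf3, -35 in Ythdc1 and 51 in Ythdf2.

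These values have limits. No protein was measured and no m6A, and reads come from the 3′ ends of transcripts, so forms of a transcript that share an end were counted together. Windows of different genes may capture reads unequally, which bears on comparisons between readers. Ythdc2 had few reads, and 45.5% of Ythdc1 reads had more than 1 position. Half-lives assume a single exponential and no new label after T0, which was not tested. STM2457 was compared with DMSO at 1 dose, so effects of the compound apart from METTL3 cannot be told apart from those of METTL3.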

How the data were processed

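SLAM-seq libraries of male mESC treated with DMSO or STM2457 were compared at 9 conditions. The authors checked reads with FastQC 0.11.8 and mapped and counted them with SLAM-DUNK 0.4.3 over 3′ windows of GRCm38 genes. In the deposited tables, reads, covered Ts and conversions were in counts (each a count for a gene), and the conversion rate was a fraction of covered Ts with no background subtracted. Libraries were grouped by treatment and condition as labelled, and none was left out.

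Read counts were filtered on low counts, scaled by TMM and tested with edgeR 4.0.16 (quasi-likelihood, Benjamini-Hochberg adjusted p under 0.01) in R 4.3.3, with 1 model for the 71 libraries. Half-lives came from an exponential fit to rates after subtraction of the unlabelled mean, for transcripts with a mean coverage over 100 Ts, a half-life of 0.67 to 18 h and a residual standard error up to 0.3. Series of same-numbered libraries were fitted apart, with no limit on that error, and compared by exact two-sided permutation tests and by limma 3.58.1 (adjusted p under 0.05). Python 3.11.15, numpy 2.4.6, pandas 2.3.3, scipy 1.17.1 and matplotlib 3.10.9 did the rest. The fits were tested on simulated data.

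The 5 readers were always named, and of each gene list up to 6 genes with the largest absolute change past adjusted p 0.01 over the chase. Members and lists were chosen with earlier results of these data known. Alternatives were DESeq2 1.42.0, other scaling, no filter, only the groups compared, another threshold, a replicate block, no multimapping reads, other backgrounds, measures, points and fits for half-lives, each replicate or library left out, and, chosen after seeing the data, the first principal component as a covariate or the libraries below -20 on it left out.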

Additional observations from a re-analysis of the deposited data

Results flagged for a closer look

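Of 180 groups of 4 values tested for the 5 readers, 21 had 1 value farther from the rest than Dixon's 95% limit allows, and chance gives about 1 in 20 groups. In 6 of the 21 the other 3 values were all 0, where any value above 0 passes the limit, so this rate does not hold for such groups. For levels these were 5 of 85 groups, for conversion rates 15 of 85 and for half-life series 1 of 10. Of 10 differences between treatments in a change along the chase or with label, 0 passed adjusted p 0.01 in edgeR and in DESeq2, with 2 at an unadjusted p under 0.05 in edgeR. Of the 12659 genes, 1799 had such a p for the difference along the chase and 487 for the difference with label.

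For read levels the values standing apart were Ythdf2 in DMSO T6 replicate 1 (33.4 CPM, the others at 23.3 to 24.7 CPM), Ythdc1 in DMSO T1 replicate 1 (51.9 CPM, the others at 74.3 to 78.1 CPM), Ythdc1 in STM2457 T6 replicate 2 (116 CPM, the others at 89.6 to 93.8 CPM), Ythdc2 in DMSO T0 replicate 3 (11.3 CPM, the others at 7.97 to 8.19 CPM) and Ythdc2 in DMSO T3 replicate 2 (11.1 CPM, the others at 7.72 to 8.28 CPM).

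For conversion rates they were Ythdf2 in DMSO unlabelled replicate 3 (0%, the others at 0.0355 to 0.0423%), Ythdf2 in DMSO T7 replicate 3 (0.0816%, the others all at 0), Ythdf3 in DMSO T0 replicate 3 (1.03%, the others at 1.51 to 1.56%), Ythdf3 in STM2457 T0 replicate 2 (1.56%, the others at 1.12 to 1.17%), Ythdf3 in STM2457 T5 replicate 1 (0.207%, the others at 0.0835 to 0.0976%), Ythdf3 in STM2457 T6 replicate 1 (0.158%, the others at 0.0314 to 0.0453%) and Ythdc1 in DMSO unlabelled replicate 4 (0.613%, the others at 0.0165 to 0.118%).

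Ythdc2, with the lowest coverage, gave 8 of them: Ythdc2 in DMSO unlabelled replicate 1 (0.0632%, the others all at 0), Ythdc2 in STM2457 unlabelled replicate 3 (0.1103%, the others all at 0), Ythdc2 in DMSO T1 replicate 1 (0%, the others at 1.36 to 1.58%), Ythdc2 in DMSO T2 replicate 2 (1.298%, the others at 0.265 to 0.365%), Ythdc2 in DMSO T3 replicate 3 (1.11%, the others at 0.3296 to 0.434%), Ythdc2 in STM2457 T5 replicate 4 (0.542%, the others all at 0), Ythdc2 in DMSO T6 replicate 4 (0.123%, the others all at 0) and Ythdc2 in STM2457 T7 replicate 2 (0.387%, the others all at 0).

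For half-lives it was Ythdf3 in DMSO series 3 (5.27 h, the others at 1.73 to 2.27 h). The causes were not tested.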

How the results depend on the processing

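Over the chase, Ythdf1, Ythdf2, Ythdf3 and Ythdc1 kept their direction and their side of the threshold in 76 refits each, and Ythdc2 kept both in 37. By condition, 901 values of the readers kept both, 38 no longer passed, 29 newly passed and 17 changed sign. For the half-lives and the count of transcripts called these numbers were 79, 13, 1 and 5, and 121 of the counts of genes left the 1.5-fold range around the reported count, with 237 inside it. The refits by the first principal component were chosen after seeing the data. Without the 12 libraries, T1 kept 1 library in each treatment, assumed to vary like the other groups, and the half-life of Ythdc2 in DMSO could not be fitted. Ythdc2 had the fewest reads of the 5, and with 4 series against 4 no exact permutation p can go below 0.0286. For the values below the cause was not tested.

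Replicate numbers do not pair the treatments. Over 35 pairs of same-numbered libraries the mean correlation of deviations was 0.03298 (-0.23 to 0.52), 9 were over 0.1 and 11 were highest for their own number, and for half-life series the mean was 0.0121. With the replicate block as a term, Ythdc2 over the chase was -0.35 (adjusted p = 0.0108), Ythdc2 T0 vs unlabelled in STM2457 0.00842, and the half-life change 0.41 Ythdf1 and 1.02 Ythdc1 (exact sign-flip p = 0.125, the smallest that 4 pairs allow).

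At adjusted p under 0.01 in edgeR, with both directions together, the reported genes called numbered 326 without label, 213 at T0, 194 at T1, 1035 at T2, 204 at T3, 164 at T4, 563 at T5, 296 at T6, 685 at T7, 3357 over the chase, 1651 T7 vs T0 in DMSO, 598 T7 vs T0 in STM2457, 140 T7 vs T0 (difference of treatments), 65 T0 vs unlabelled in DMSO, 66 T0 vs unlabelled in STM2457 and 0 T0 vs unlabelled (difference of treatments). At adjusted p under 0.05, the genes called numbered 743 without label, 461 at T0, 390 at T1, 2313 at T2, 455 at T3, 343 at T4, 1498 at T5, 591 at T6, 1258 at T7, 2856 T7 vs T0 in DMSO, 1205 T7 vs T0 in STM2457, 283 T7 vs T0 (difference of treatments), 157 T0 vs unlabelled in DMSO and 189 T0 vs unlabelled in STM2457. With only the groups compared in the fit, the genes called numbered 107 without label, 0 at T1, 453 at T3, 310 at T4, 159 at T5, 541 at T6, 956 T7 vs T0 in STM2457 and 14 T0 vs unlabelled in DMSO. With the first principal component as a covariate, the genes called numbered 376 at T0, 423 at T1, 339 at T2, 449 at T3, 359 at T4, 356 at T5, 569 at T6, 1160 at T7, 1109 T7 vs T0 in STM2457, 277 T7 vs T0 (difference of treatments), 197 T0 vs unlabelled in DMSO and 219 T0 vs unlabelled in STM2457. Without the 12 libraries below -20 on that component, the genes called numbered 7 at T1, 531 at T2, 402 at T3, 292 at T4, 220 at T5, 593 at T6, 1088 at T7, 1103 T7 vs T0 in STM2457, 236 T7 vs T0 (difference of treatments), 99 T0 vs unlabelled in DMSO and 216 T0 vs unlabelled in STM2457. In DESeq2, the genes called numbered 105 T0 vs unlabelled in DMSO and 121 T0 vs unlabelled in STM2457.

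With only the groups compared in the fit, log2 fold changes were -0.64 Ythdf2 T7 vs T0 in STM2457. With the first principal component as a covariate, log2 fold changes were -0.24 Ythdc2 over the chase, -0.0817 Ythdf1 T7 vs T0 in DMSO, -0.53 Ythdf2 T7 vs T0 in DMSO, -0.36 Ythdf3 T7 vs T0 in DMSO, 0.12 Ythdc1 T7 vs T0 in DMSO, -0.40 Ythdf1 T7 vs T0 in STM2457, -0.76 Ythdc1 T7 vs T0 (difference of treatments), 0.0227 Ythdf3 T0 vs unlabelled in STM2457 and -0.0329 Ythdf2 T0 vs unlabelled (difference of treatments). Without the 12 libraries below -20 on that component, log2 fold changes were -0.0225 Ythdf3 at T1, 1.11 Ythdc2 at T1, -0.13 Ythdc2 over the chase, -0.00935 Ythdf1 T7 vs T0 in DMSO, -0.64 Ythdf2 T7 vs T0 in STM2457 and 0.0322 Ythdc2 T7 vs T0 (difference of treatments). With no filter on low counts, log2 fold changes were -0.35 Ythdc2 over the chase. Without multimapping reads, log2 fold changes were -0.35 Ythdc2 over the chase, 0.16 Ythdc1 T7 vs T0 in DMSO, -0.39 Ythdc1 T7 vs T0 in STM2457, -0.0902 Ythdc1 T0 vs unlabelled in STM2457, -0.00564 Ythdf2 T0 vs unlabelled (difference of treatments) and -0.01402 Ythdf3 T0 vs unlabelled (difference of treatments). With library totals only, log2 fold changes were 0.0831 Ythdc1 T7 vs T0 in DMSO, 0.0141 Ythdf1 T0 vs unlabelled in STM2457, 0.0326 Ythdc2 T0 vs unlabelled in STM2457 and -0.005101 Ythdf2 T0 vs unlabelled (difference of treatments). With a straight line through ln rate at times above background, log2 half-life changes were -0.56 Ythdf1, -0.28 Ythdf3 and -0.46 Ythdc1. With no background subtracted, log2 half-life changes were 0.72 Ythdc1. With the unlabelled libraries of both treatments as background, log2 half-life changes were 0.73 Ythdc1. From the share of reads with a conversion, log2 half-life changes were -0.0332 Ythdc2.

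With 1 replicate or library left out, the genes called numbered 103 to 295 without label, 80 to 193 at T0, 90 to 209 at T1, 230 to 1200 at T2, 72 to 158 at T3, 43 to 124 at T4, 101 to 886 at T5, 111 to 254 at T6, 352 to 600 at T7, 857 to 1207 T7 vs T0 in DMSO, 179 to 373 T7 vs T0 in STM2457, 40 to 83 T7 vs T0 (difference of treatments), 14 to 35 T0 vs unlabelled in DMSO and 9 to 39 T0 vs unlabelled in STM2457. Log2 fold changes ran from -0.27 to 0.36 for Ythdc2 without label, -0.17 to 0.46 for Ythdf3 at T1, -0.60 to 0.16 for Ythdc2 at T4, -0.20 to 0.14 for Ythdf3 at T6, -0.49 to -0.21 for Ythdc2 over the chase, -0.0245 to 0.10 for Ythdf1 T7 vs T0 in DMSO, -0.78 to -0.46 for Ythdf2 T7 vs T0 in STM2457, -0.046998 to 0.26 for Ythdc2 T7 vs T0 in STM2457, -0.18 to 0.18 for Ythdc2 T7 vs T0 (difference of treatments), -0.32 to 0.0799 for Ythdf3 T0 vs unlabelled in DMSO, -0.08601 to 0.55 for Ythdc2 T0 vs unlabelled in DMSO, -0.0608 to 0.0803 for Ythdf1 T0 vs unlabelled in STM2457, -0.26 to 0.0482 for Ythdf3 T0 vs unlabelled in STM2457, -0.0414 to 0.21 for Ythdc1 T0 vs unlabelled in STM2457, -0.21 to 0.23 for Ythdc2 T0 vs unlabelled in STM2457, -0.14 to 0.0337 for Ythdf1 T0 vs unlabelled (difference of treatments), -0.0871 to 0.11 for Ythdf2 T0 vs unlabelled (difference of treatments) and -0.0712 to 0.18 for Ythdf3 T0 vs unlabelled (difference of treatments). Log2 half-life changes ran from 0.35 to 0.53 for Ythdf1, 0.92 to 1.47 for Ythdf2, 0.65 to 1.21 for Ythdc1 and -0.0844 to 0.72 for Ythdc2, and the difference in T0 rate from -0.0778 to 0.01697 percentage points for Ythdf1.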
